A study of Mus musculus with 6 samples.

Results

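The 10 genes described here take up choline and carnitine or build phosphatidylcholine, and they were chosen by name from a count table of 25751 genes. They are the choline transporters Slc44a1 (ENSMUSG00000028412) and Slc44a2 (ENSMUSG00000057193), and the carnitine-related transporters Slc22a4 (ENSMUSG00000020334) and Slc22a5 (ENSMUSG00000018900). The enzymes are the choline kinases Chka (ENSMUSG00000024843) and Chkb (ENSMUSG00000022617), the cytidylyl transferase Pcyt1a (ENSMUSG00000005615), the phosphotransferases Cept1 (ENSMUSG00000040774) and Chpt1 (ENSMUSG00000060002), and the methyltransferase Pemt (ENSMUSG00000000301). RNA-seq was made from primary mouse myeloid cells of wild-type genotype, all labelled 24 h, in 3 libraries from cells given trimethylamine N-oxide (abbreviated TMAO) and 3 control libraries. The labels give no dose of TMAO and do not say how or from which animals the cells were obtained, and the p-values therefore cover no more than the differences among libraries, possibly technical ones. The deposited descriptions name the treated samples T-BMDM and the others Control, and a difference in cell source between the groups cannot be told apart from the treatment.

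TMAO and these genes share precursors. Gut bacteria release trimethylamine from choline, carnitine and phosphatidylcholine, and flavin-containing monooxygenases oxidise it to TMAO. Inside cells, choline is phosphorylated by choline kinase, activated to CDP-choline by cytidylyl transferase and joined to diacylglycerol by a phosphotransferase, which gives phosphatidylcholine, the main phospholipid of most mammalian membranes. Pemt makes the same lipid by methylating phosphatidylethanolamine, mainly in liver. Carnitine carries long-chain fatty acids into mitochondria, and most cells take it up from the blood.

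With TMAO, both choline kinase genes and Pemt rose more than 2-fold, Slc22a4 rose slightly, and the other 6 genes fell. Pcyt1a, whose product catalyses the step that usually limits phosphatidylcholine synthesis, fell the most of the 10, to 60.9 ± 15.5 CPM with TMAO against 208 ± 19.4 CPM in controls (mean ± SD, n = 3 per group). CPM is the read count of a gene relative to all reads counted in its library, with TMM scaling of the library totals. All 10 genes passed the filter on low counts and all 10 passed the test, 4 higher and 6 lower (edgeR's quasi-likelihood test, Benjamini-Hochberg adjusted p under 0.05 over 14626 genes). Of all genes tested, 65.7% were called, 33.0% higher and 32.7% lower, so a call by itself is common in this comparison. The CPM of the groups did not overlap for any of the 10, which held for 71.0% of all genes tested. A call with a change of at least 2-fold was found in 5 of the 10 and in 30.4% of the genes tested. The median log2 fold change of the 10 genes was -0.51, against 0.01 for all genes tested, and their summed level was 372 to 397 CPM in the TMAO libraries and 595 to 663 CPM in the control libraries.

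**Figure D1:**
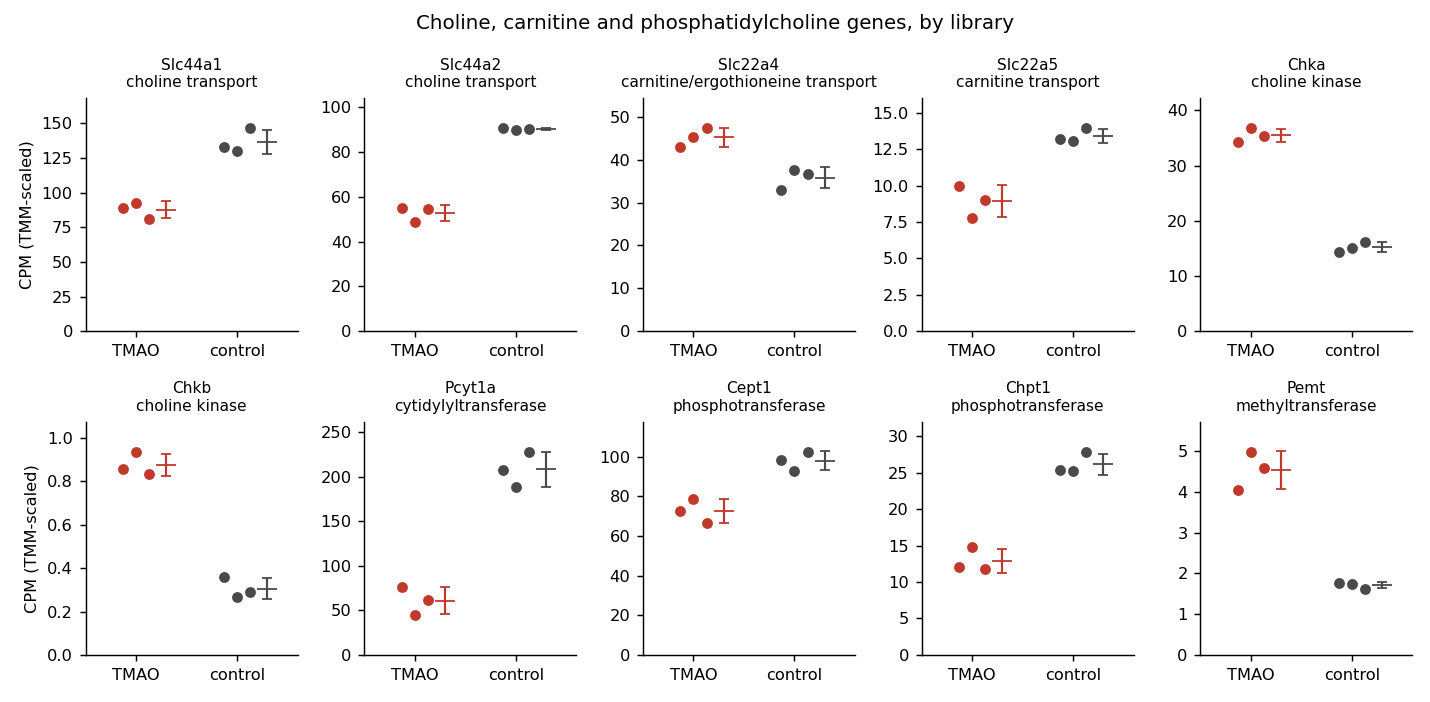
CPM (TMM-scaled, linear axes from 0) of each of the 10 genes in the 3 TMAO libraries (red, left) and the 3 control libraries (grey, right), with mean and SD beside the points. In each panel the points of the groups are apart, with Pcyt1a at 45.3 to 76.2 CPM in TMAO libraries and 189 to 228 CPM in control libraries.

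The libraries held 37759007 to 38935691 counts with TMAO and 38233772 to 41735109 in controls. The labelled cell type was checked against markers: Lyz2 stood at 37357 ± 4499 CPM with TMAO and 37023 ± 2335 CPM in controls, and the macrophage growth factor receptor gene Csf1r at 2108 ± 244 and 2560 ± 85.4 CPM. Of 15 macrophage identity markers, 6 were called higher and 6 lower, against 33.0% and 32.7% of all genes tested, and some moved far. Named after their values were seen, Mertk was at 16.3 ± 3.67 CPM with TMAO and 162 ± 15.8 CPM in controls (log2 fold change -3.31). The log2 fold change was -2.07 for Fcgr1, -1.71 for Maf, -1.70 for Adgre1 and 2.84 for Cd14. Besides Csf1r, the remaining calls were C1qa (0.75), C1qb (0.67), Cx3cr1 (0.63), Mrc1 (0.34) and C1qc (0.22), all higher, and Cd68 (-0.81), lower. Markers of other cells moved with the groups. Of 19 neutrophil and granulocyte precursor markers, 16 were called higher and 2 lower, and they summed to 4582 to 5845 CPM with TMAO and 491 to 538 CPM in controls, with none at 0 in either group. Of 10 monocyte markers, 8 were called higher and 2 lower (summed 1093 to 1157 CPM with TMAO, 383 to 416 CPM in controls). All 12 mitosis markers were called higher (365 to 417 CPM with TMAO, 52.7 to 55.3 CPM in controls). B cell markers summed to 33.1 to 35.6 CPM with TMAO and 9.16 to 11.5 CPM in controls, where Pax5, Ebf1 and Vpreb3 had no counts. Erythroid and megakaryocyte markers summed to 353 to 537 CPM with TMAO and 43.9 to 65.9 CPM in controls, most of it from the platelet factor gene Pf4 (383 ± 94.3 CPM with TMAO, 50.9 ± 10.6 CPM in controls). The haemoglobin gene Hbb-bs of that list was called lower (log2 fold change -1.44, edgeR adjusted p = 0.0212), and Hba-a1 and Hbb-bt were not tested, with 16 and 2 reads with TMAO and 42 and 18 in controls. Dendritic cell markers summed to 82.6 to 91.6 CPM with TMAO and 62.0 to 65.6 CPM in controls, where Siglech and Cd209a had no counts; 7 of 9 tested were called higher and 1 lower. That 1 was Itgax, at 23.1 ± 2.497 CPM with TMAO and 56.9 ± 0.710 CPM in controls, while Ccl22 was at 45.5 ± 1.69 and 3.65 ± 0.998 CPM. Stromal markers summed to 10.2 to 13.3 CPM with TMAO and 8.39 to 8.84 CPM in controls. The part of these cells in each change of the 10 genes was not tested, and in such bulk samples fewer cells of a type and less RNA per cell cannot be told apart.

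To show the sequence before the annotated start of genes that moved in opposite directions, the 250 bases before it are printed for Chka, which rose, for Pcyt1a, which fell, and for the neighbouring genes Slc22a4 and Slc22a5, of which the first rose and the second fell. The sequences are from RefSeq on build GRCm38.p6 and run 5′ to 3′ on the strand of the gene, and the most upstream listed start was taken for Pcyt1a, which has 3. They lie at chr19:3851523-3851772 (plus strand), chr16:32430671-32430920 (plus), chr11:54028105-54028354 (minus) and chr11:53891704-53891953 (minus). Capitals mark matches on either strand to the GC box GGGCGG, the CCAAT box CCAAT and the E-box CACGTG. GC boxes may overlap, as in Pcyt1a.
Chka: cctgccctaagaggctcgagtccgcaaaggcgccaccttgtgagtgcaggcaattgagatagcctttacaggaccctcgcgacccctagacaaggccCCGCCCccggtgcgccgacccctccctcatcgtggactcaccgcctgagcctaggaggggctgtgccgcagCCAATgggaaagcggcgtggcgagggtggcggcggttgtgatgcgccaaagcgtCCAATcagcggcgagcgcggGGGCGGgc
Pcyt1a: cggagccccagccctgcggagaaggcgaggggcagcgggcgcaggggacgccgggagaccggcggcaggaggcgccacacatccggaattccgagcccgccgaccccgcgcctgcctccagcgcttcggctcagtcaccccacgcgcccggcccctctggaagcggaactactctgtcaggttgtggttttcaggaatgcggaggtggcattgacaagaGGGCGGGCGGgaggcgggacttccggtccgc
Slc22a4: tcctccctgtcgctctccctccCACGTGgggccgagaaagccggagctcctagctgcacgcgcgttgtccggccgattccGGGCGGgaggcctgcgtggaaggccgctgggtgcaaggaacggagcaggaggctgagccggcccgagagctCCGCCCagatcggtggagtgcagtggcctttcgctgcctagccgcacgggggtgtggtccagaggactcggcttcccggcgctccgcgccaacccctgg
Slc22a5: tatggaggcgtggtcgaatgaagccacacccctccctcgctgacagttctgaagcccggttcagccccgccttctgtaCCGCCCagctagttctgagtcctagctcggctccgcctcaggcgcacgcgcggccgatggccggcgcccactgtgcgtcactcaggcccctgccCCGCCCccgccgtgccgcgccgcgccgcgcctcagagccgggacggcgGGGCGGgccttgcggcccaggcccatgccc
The window of Chka held 2 GC boxes and 2 CCAAT boxes, that of Pcyt1a 2 GC boxes, that of Slc22a4 2 GC boxes and 1 E-box, and that of Slc22a5 3 GC boxes. Over the most upstream windows of all 10 genes, 9 held a GC box, 4 a CCAAT box (Chka, Chkb, Pemt and Chpt1), 1 an E-box and none the AP-1 motif TGANTCA. Among all 32851 windows of this length in the table the shares were 32.7%, 33.8%, 6.02% and 6.75%. Those windows were not limited to the most upstream start of a gene or to the genes tested here, so the sets are unlike. The GC content of the 10 windows ran from 44.8% (Pemt) to 81.2% (Slc44a1), against a median of 52.4% over all windows. All 250 bases before Chkb are exon of C730034F03Rik. Exon bases, counted per annotated gene, also fell in the windows of Slc44a2 (170), Cept1 (118) and Chpt1 (103). Of the 4 genes that rose, Chka, Chkb and Pemt held a CCAAT box, and of the 6 that fell, Chpt1 did. A match describes the letters only and shows no binding.

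The choline transporters fell together. Slc44a1, which carries choline across the plasma and mitochondrial membranes, had 89.3, 92.8 and 80.9 CPM in the TMAO libraries, against 133, 130.4 and 146 CPM in the control libraries. Every TMAO library was below every control library, and the gene fell 1.56-fold (log2 fold change -0.64, SE 0.09, edgeR adjusted p = 0.000128). Slc44a2, a related choline transporter that in humans carries the neutrophil antigen HNA-3, had 54.8, 48.8 and 54.6 CPM with TMAO and 90.6, 89.7 and 90.3 CPM in controls. The control values lay within 1 CPM of each other and all were higher. Slc44a2 fell 1.71-fold (log2 fold change -0.77, SE 0.09, edgeR adjusted p = 2.34e-05). The ratio of Slc44a1 to Slc44a2, each per kb of its longest annotated transcript, was 1.51, 1.77 and 1.38 with TMAO and 1.37, 1.35 and 1.51 in controls. These ratios overlapped, and their log2 difference of 0.14 did not pass an exact permutation test (two-sided p = 0.2, adjusted p = 0.24 over 6 pairs of genes). With 3 libraries per group the smallest p this test can give is 0.1, so it cannot pass for any pair.

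The carnitine-related transporters moved apart. Slc22a4 encodes OCTN1, which carries ergothioneine and other organic cations, and carnitine weakly. It stood at 43.0, 45.3 and 47.3 CPM with TMAO and at 33.0, 37.7 and 36.7 CPM in controls. The TMAO values were all higher, and the rise was the smallest of the 10 changes, at 1.26-fold (log2 fold change 0.34, SE 0.09, edgeR adjusted p = 0.00887). This call was lost without control replicate 1 (log2 fold change 0.27, edgeR adjusted p = 0.068) and with the trend on gene length removed (log2 fold change 0.06, edgeR adjusted p = 0.549). Slc22a5 encodes OCTN2, the high-affinity carnitine transporter that depends on sodium. Its values were 9.99, 7.79 and 8.99 CPM with TMAO and 13.2, 13.05 and 13.9 CPM in controls, which do not overlap. Slc22a5 fell 1.501-fold (log2 fold change -0.59, SE 0.13, edgeR adjusted p = 0.00219). Per kb, the ratio of Slc22a4 to Slc22a5 was 5.82, 7.88 and 7.12 in TMAO libraries and 3.37, 3.91 and 3.57 in control libraries. Every TMAO ratio was above every control ratio, with a log2 difference of 0.93 (exact permutation p = 0.1, adjusted p = 0.15 over the 6 pairs). Slc22a21, a related mouse gene named here after its value was seen, had 2.17 ± 0.274 CPM with TMAO and 2.65 ± 0.172 CPM in controls and did not pass the test (edgeR adjusted p = 0.216).

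Both choline kinase genes, whose products make phosphocholine and phosphoethanolamine, rose. Chka was at 34.3, 36.8 and 35.4 CPM with TMAO and at 14.3, 15.2 and 16.1 CPM in controls. The lowest TMAO library held more than 2 times the highest control library, and the rise was 2.34-fold (log2 fold change 1.22, SE 0.10, edgeR adjusted p = 2.27e-06). Chkb was far lower: 34, 34 and 32 reads were counted in the TMAO libraries and 14, 11 and 12 in the control libraries, which is 0.858, 0.935 and 0.834 CPM against 0.360, 0.266 and 0.291 CPM. Its rise of 2.85-fold was the largest estimate among the genes that rose, with the widest 95% interval of the 10, from 0.73 to 2.29 on the log2 scale (log2 fold change 1.51, SE 0.35, edgeR adjusted p = 0.00319). The exons of Chkb overlap other genes: in the GENCODE annotation of GRCm38, 50.7% of their bases also belong to the gene Gm44502 on the same strand, which is not used here, and 10.5% to C730034F03Rik on the opposite strand. C730034F03Rik had 0.555, 0.413 and 0.235 CPM with TMAO and 0.154, 0.0483 and 0.0484 CPM in controls. How reads were assigned among these genes is not given in the sources used here. Its part in the low level of Chkb and in its change was not tested. The same holds for the ratio of Chka to Chkb and for the place of Chkb among the 10 genes per kb. Per kb, Chka exceeded Chkb 20.7-fold to 22.4-fold in TMAO libraries and 20.9-fold to 30.1-fold in control libraries. The ratios overlapped (log2 difference -0.30, exact permutation p = 0.3, adjusted p = 0.3 over the 6 pairs).

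**Figure D2:**
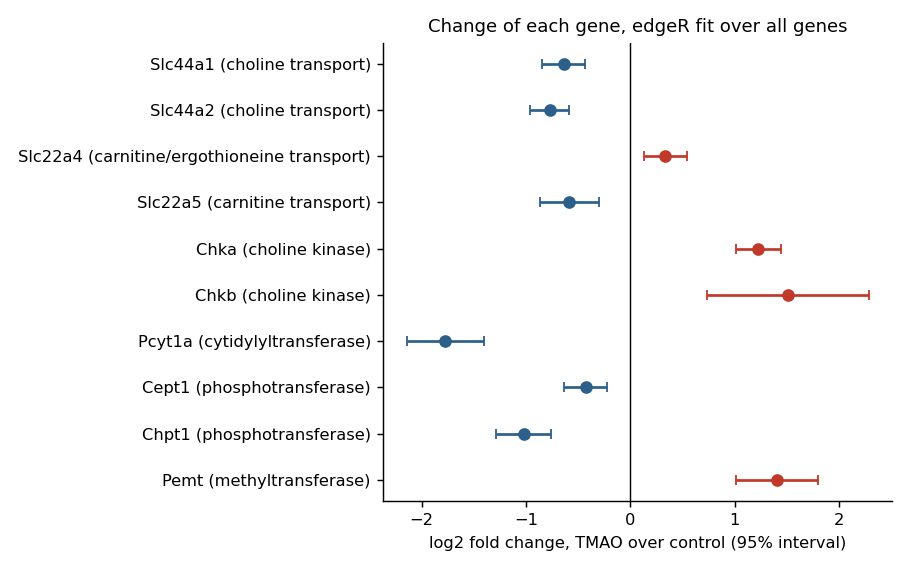
Log2 fold change of TMAO over control for each of the 10 genes, in the order uptake, phosphorylation, activation, phosphatidylcholine synthesis, with 95% intervals from the edgeR fit over all genes (red higher, blue lower with TMAO). Chkb, counted in 11 to 34 reads per library, has the widest interval, and Pcyt1a lies lowest at -1.77.

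The next step moved the other way. Pcyt1a encodes the alpha form of CTP:phosphocholine cytidylyl transferase, an enzyme that is active when bound to membranes poor in phosphatidylcholine. It had 76.2, 45.3 and 61.1 CPM in the TMAO libraries, against 208, 189 and 228 CPM in the control libraries. The TMAO libraries differed among themselves more than for any other of the 10 genes relative to their mean, and still all lay below the controls. Pcyt1a fell 3.42-fold (log2 fold change -1.77, SE 0.17, 95% interval -2.14 to -1.41, edgeR adjusted p = 7.25e-06). Of all genes tested, 11.5% had a larger absolute change. Pcyt1b, the beta form, was scarce, at 0.490 ± 0.282 CPM with TMAO and 1.07 ± 0.387 CPM in controls, and missed the threshold (edgeR adjusted p = 0.0588, log2 fold change -1.12). It was called lower under 5 of 15 alternatives, among them without TMAO replicate 1 (edgeR adjusted p = 0.0134) and without control replicate 2 (edgeR adjusted p = 0.0268), and over those 15 its adjusted p lay between 0.0129 and 0.163.

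Both phosphotransferase genes, which join CDP-choline to diacylglycerol, fell. Chpt1, whose product uses CDP-choline, had 12.1, 14.7 and 11.8 CPM with TMAO and 25.4, 25.3 and 27.8 CPM in controls. All TMAO values were far below the controls, at a fall of 2.03-fold (log2 fold change -1.02, SE 0.12, edgeR adjusted p = 3.15e-05). Cept1, whose product takes CDP-choline and CDP-ethanolamine, had 72.5, 78.8 and 66.7 CPM with TMAO and 98.3, 92.8 and 102 CPM in controls. It fell 1.35-fold (log2 fold change -0.43, SE 0.09, edgeR adjusted p = 0.00206), and this call was lost with the trend on GC content removed (log2 fold change -0.17, edgeR adjusted p = 0.0728). Of the exon bases of Cept1, 24.7% also belong to Dennd2d on the opposite strand, which was at 4.10 to 6.31 CPM with TMAO and 2.73 to 4.43 CPM in controls; its part in the change of Cept1 was not tested. Per kb, Cept1 exceeded Chpt1 by 10.3-fold, 9.24-fold and 9.80-fold in TMAO libraries and by 6.70-fold, 6.35-fold and 6.36-fold in control libraries. The ratios did not overlap (log2 difference 0.60, exact permutation p = 0.1, adjusted p = 0.15 over the 6 pairs).

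Pemt, which methylates phosphatidylethanolamine to phosphatidylcholine, was low but rose. It had 4.04, 4.98 and 4.59 CPM with TMAO and 1.78, 1.74 and 1.62 CPM in controls, from 160 to 181 and 67 to 72 reads per library. The lowest TMAO value was more than 2 times the highest control value. Pemt rose 2.64-fold (log2 fold change 1.40, SE 0.18, edgeR adjusted p = 5.81e-05). Within each library, Pcyt1a per kb exceeded Pemt per kb by 3.96-fold, 1.90-fold and 2.79-fold with TMAO and by 24.6-fold, 22.8-fold and 29.4-fold in controls. These ratios were apart, with a log2 difference of -3.20 (exact permutation p = 0.1, adjusted p = 0.15 over the 6 pairs), and Pcyt1a stayed above Pemt in every library.

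**Figure D3:**
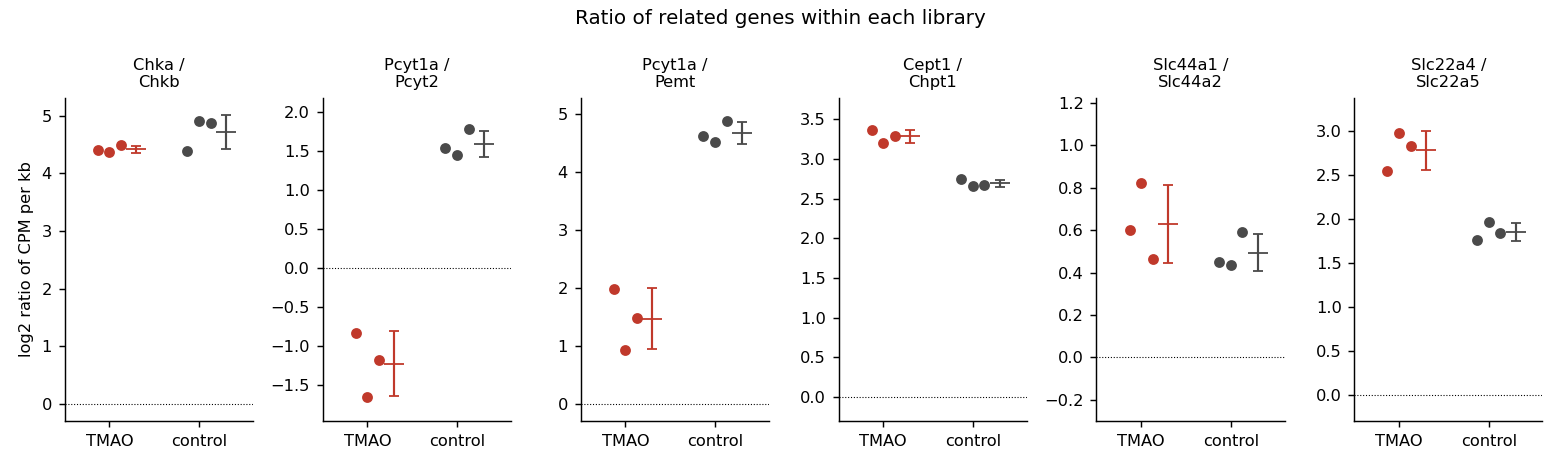
Log2 ratio of CPM per kb of transcript for 6 pairs of related genes in each library, TMAO (red, left) and control (grey, right), with mean and SD; the dotted line marks equal levels and each panel has its own scale. Pcyt1a over Pcyt2 lies below the line in the 3 TMAO libraries and above it in the 3 control libraries, while Chka over Chkb and Slc44a1 over Slc44a2 overlap between the groups.

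Set in order of CPM per kb, the 10 genes ranked differently in the groups. With TMAO the order was Cept1 (25.8 ± 2.16), Slc44a1 (20.0 ± 1.39), Slc22a4 (20.0 ± 0.958), Slc44a2 (12.9 ± 0.843), Pcyt1a (12.7 ± 3.24), Chka (7.63 ± 0.265), Pemt (4.52 ± 0.472), Slc22a5 (2.91 ± 0.361), Chpt1 (2.65 ± 0.336) and Chkb (0.357 ± 0.0215). In this order the library ranges of Slc44a1 and Slc22a4, of Slc44a2 and Pcyt1a, and of Slc22a5 and Chpt1 overlapped. In controls Pcyt1a led at 43.5 ± 4.05 CPM per kb, followed by Cept1 (34.8 ± 1.70), Slc44a1 (31.2 ± 1.96), Slc44a2 (22.1 ± 0.113), Slc22a4 (15.8 ± 1.10), Chpt1 (5.38 ± 0.297), Slc22a5 (4.38 ± 0.152), Chka (3.26 ± 0.199), Pemt (1.71 ± 0.0795) and Chkb (0.124 ± 0.0199). Only the ranges of Cept1 and Slc44a1 overlapped as neighbours there. With the length of all exons merged in place of the longest transcript, Cept1 came before Pcyt1a in controls, at 31.4 ± 1.53 and 28.1 ± 2.62 CPM per kb, with overlapping ranges. Other places changed too, some without overlap. With TMAO, Slc22a4 (17.7 ± 0.850 CPM per kb) then stood above Slc44a1 (12.6 ± 0.879), Pcyt1a (8.21 ± 2.09) above Slc44a2 (6.08 ± 0.396) with overlap, and Slc22a5 (2.91 ± 0.360) above Pemt (2.16 ± 0.225). In controls, Slc22a4 (14.0 ± 0.976 CPM per kb) stood above Slc44a2 (10.4 ± 0.0529), and Slc22a5 (4.36 ± 0.152) above Chpt1 (3.14 ± 0.173). The order of these genes therefore depends on the length used. So do the ratios within pairs, but not their difference between groups. With merged exons the mean log2 ratio of Chka to Chkb was 3.37 with TMAO and 3.67 in controls, against 4.42 and 4.72 with the longest transcript. For Cept1 to Chpt1 it was 3.92 and 3.32, against 3.29 and 2.69.

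In the parallel branch that makes phosphatidylethanolamine, Etnk1 and Pcyt2 moved in directions opposite to the choline kinase genes and Pcyt1a. Pcyt2, the cytidylyl transferase for phosphoethanolamine, rose 2.01-fold, to 54.5 ± 1.30 CPM with TMAO against 27.2 ± 1.01 CPM in controls (log2 fold change 1.01, SE 0.09, edgeR adjusted p = 3.97e-06). Etnk1, an ethanolamine kinase gene, fell 1.88-fold, with 49.3 ± 4.99 CPM with TMAO and 92.5 ± 9.09 CPM in controls (edgeR adjusted p = 4.06e-05). For choline the kinase genes Chka and Chkb were higher and the cytidylyl transferase gene Pcyt1a lower, and for ethanolamine Etnk1 was lower and Pcyt2 higher. The ethanolamine kinase gene Etnk2 did not share the fall of Etnk1. It was too scarce to be tested, with 4, 3 and 8 reads in the TMAO libraries and 0 in each control library. The products of Chka and Chkb also make phosphoethanolamine, so the fall of Etnk1 does not stand for the whole step. Pcyt1a per kb was 0.561, 0.318 and 0.443 times Pcyt2 per kb in the TMAO libraries, against 2.91, 2.72 and 3.43 times in the control libraries, a log2 difference of -2.81 (exact permutation p = 0.1, adjusted p = 0.15 over the 6 pairs). Pisd, which decarboxylates phosphatidylserine to phosphatidylethanolamine in mitochondria, rose 1.39-fold (edgeR adjusted p = 0.000477). Of the 8 genes listed for phosphatidylethanolamine and phosphatidylserine, 6 were tested, 2 rose and 2 fell, at a median log2 fold change of -0.12.

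Among other choline genes, Flvcr1, a choline transporter of the plasma membrane, fell 1.89-fold, with 74.4 ± 4.65 CPM with TMAO and 141 ± 1.11 CPM in controls (edgeR adjusted p = 5.78e-06). It fell as Slc44a1 and Slc44a2 did. Slc44a4 was at 0.146 ± 0.117 CPM with TMAO and 0.304 ± 0.205 CPM in controls and did not pass the test (edgeR adjusted p = 0.235). Of the 7 genes on this list of uptake and cytidylyl transferase genes, 3 were tested, of which 1 fell and none rose. All genes tested fell in 32.7% and rose in 33.0% of cases. The untested Slc44a3, Slc44a5 and Flvcr2 stayed at or below 0.235 CPM in every library, and Slc5a7 was not analysed here.

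Genes that supply diacylglycerol, the other substrate of Cept1 and Chpt1, went both ways. Of 11 listed and 10 tested, 4 rose and 3 fell, against 33.0% higher and 32.7% lower among all genes tested. Their median log2 fold change was 0.18. Agpat4, an acyltransferase of the lysophosphatidic acid family, rose 3.32-fold to 92.4 ± 6.87 CPM with TMAO, against 27.8 ± 3.94 CPM in controls (edgeR adjusted p = 8.08e-07). Gpat3, which acylates glycerol 3-phosphate, had 5.42 ± 0.821 CPM with TMAO and 0.316 ± 0.276 CPM in controls (log2 fold change 4.07, edgeR adjusted p = 1.36e-05). Its control libraries held 4, 26 and 9 reads, and without control replicate 2 the log2 fold change was 5.04, still called higher. Agpat5 rose 1.92-fold (edgeR adjusted p = 1.62e-05). Named after their values were seen, the 3 that fell were the phosphatidate phosphatase genes Lpin1 (log2 fold change -1.68) and Lpin2 (-0.71), and Gpam (-0.82). The remaining rise was that of Agpat2 (0.50).

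Genes that remodel, move or break down phosphatidylcholine changed in both directions. For comparison, 33.0% of all genes tested rose and 32.7% fell. Of 12 remodelling and transfer genes, 11 were tested, 3 rose and 5 fell, at a median log2 fold change of -0.37. Lpcat1, which reacylates lysophosphatidylcholine, fell 2.19-fold, with 23.5 ± 1.12 CPM with TMAO and 51.5 ± 3.52 CPM in controls (edgeR adjusted p = 3.35e-06). The phosphatidylcholine transfer protein gene Pctp fell 1.69-fold (edgeR adjusted p = 3.36e-05), and Tmem86b, which encodes a lysoplasmalogenase, rose 2.46-fold (edgeR adjusted p = 2.83e-05). Of 21 breakdown and sphingomyelin genes, 19 were tested, 6 rose and 9 fell, at a median log2 fold change of -0.44. Pla2g15, the lysosomal phospholipase A2, fell 4.91-fold, with 41.1 ± 3.80 CPM with TMAO and 202 ± 10.3 CPM in controls (edgeR adjusted p = 3.78e-08). Pla2g7, which hydrolyses platelet-activating factor and oxidised phosphatidylcholine, fell 2.02-fold from a high level, with 537 ± 46.8 CPM with TMAO and 1088 ± 38.9 CPM in controls (edgeR adjusted p = 5.56e-06). Gdpd5, which splits glycerophosphocholine and so returns choline, fell 3.66-fold (edgeR adjusted p = 1.88e-06).

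**Figure D4:**
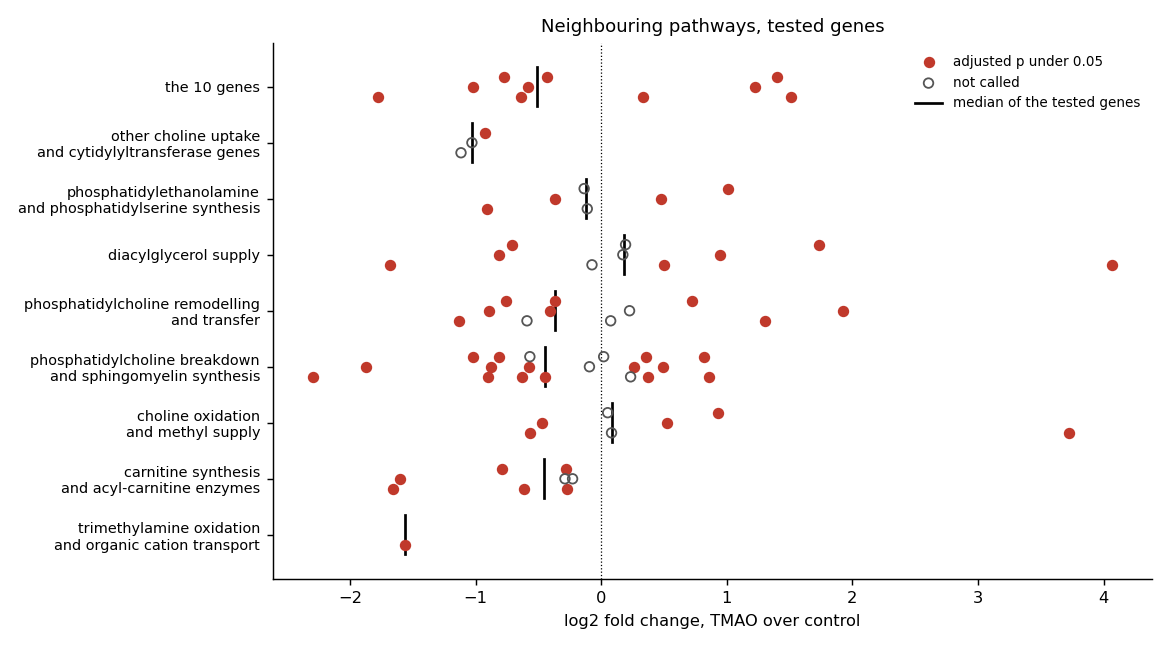
Log2 fold change of TMAO over control for each tested gene of the 10 and of 8 neighbouring pathway lists (filled red, edgeR adjusted p under 0.05; open, not called), with the median of each list as a black line. The lists of carnitine, of other choline uptake and of trimethylamine oxidation hold 8, 3 and 1 tested genes. None of these is called higher, against 33.0% of all genes tested. The largest estimates of a rise are those of Gpat3 at 4.07 and Chdh at 3.73.

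Of 13 genes listed for carnitine synthesis and acyl-carnitine, 8 were tested, 6 fell and none rose, at a median log2 fold change of -0.45, against 32.7% lower among all genes tested. Cpt1b and Cpt1c were in the table but not tested, with 6 and 41 reads with TMAO and 13 and 15 in controls. Cpt1a, which forms acyl-carnitine at the outer mitochondrial membrane, fell 3.04-fold, with 65.7 ± 9.996 CPM with TMAO and 199.6 ± 9.88 CPM in controls (edgeR adjusted p = 1.12e-06). Crot, the peroxisomal carnitine octanoyltransferase gene, fell 3.16-fold (edgeR adjusted p = 7.06e-07), and Slc25a20, the carrier that exchanges acyl-carnitine for carnitine across the inner mitochondrial membrane, fell 1.72-fold (edgeR adjusted p = 6.46e-05). Without TMAO replicate 1, 1 gene of the list was called higher. Tmlhe and Bbox1, genes of carnitine synthesis, were not analysed here.

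Genes that oxidise choline or supply methyl groups showed no common direction, with 3 of 7 tested genes higher and 2 lower at a median log2 fold change of 0.08. Over all genes tested, 33.0% were higher and 32.7% lower. Chdh, the mitochondrial choline dehydrogenase gene, rose 13.2-fold at a low level, with 244 reads in the TMAO libraries and 19 in the control libraries (log2 fold change 3.73, SE 0.46, edgeR adjusted p = 4.69e-05). Mat2a, which makes the S-adenosylmethionine that Pemt uses, rose 1.44-fold to 164 ± 6.71 CPM with TMAO, against 114 ± 3.18 CPM in controls (edgeR adjusted p = 0.000209). Its regulatory partner Mat2b fell 1.48-fold (edgeR adjusted p = 0.000297). Of the flavin-containing monooxygenase genes, Fmo1, Fmo2 and Fmo4 were scarce, with 2, 2 and 14 reads in the TMAO libraries and 0, 2 and 4 in the control libraries. Only Fmo5 passed the filter among 8 genes of trimethylamine oxidation and organic cation transport in the table, and it fell 2.95-fold, with 2.88 ± 0.448 CPM with TMAO and 8.51 ± 0.636 CPM in controls (edgeR adjusted p = 1.48e-05). Whether its product oxidises trimethylamine was not tested, so this fall does not stand for trimethylamine oxidation. Slc22a2 and Slc22a3 were not analysed here.

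Changes also followed transcript length across all genes. With the tested genes cut into 5 classes of equal size by length, the shortest class had a median log2 fold change of 0.49 and the longest -0.53. Among the 10 genes, 3 of the 4 that rose (Pemt at 1003 bases, Slc22a4 at 2263 and Chkb at 2455) had a shorter longest transcript than all 6 that fell, which ran from 2814 to 4863 bases, and Chka, which rose, had 4652. With the length trend removed, 9 of the 10 calls stayed in their direction. Chka was then at a log2 fold change of 1.45, Pemt at 0.94, Chkb at 1.27, Pcyt1a at -1.54 and Chpt1 at -0.77. Pemt and Chpt1 were thus below a 2-fold change, and Chpt1 was at -0.71 with the trend on GC content removed.

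**Figure D5:**
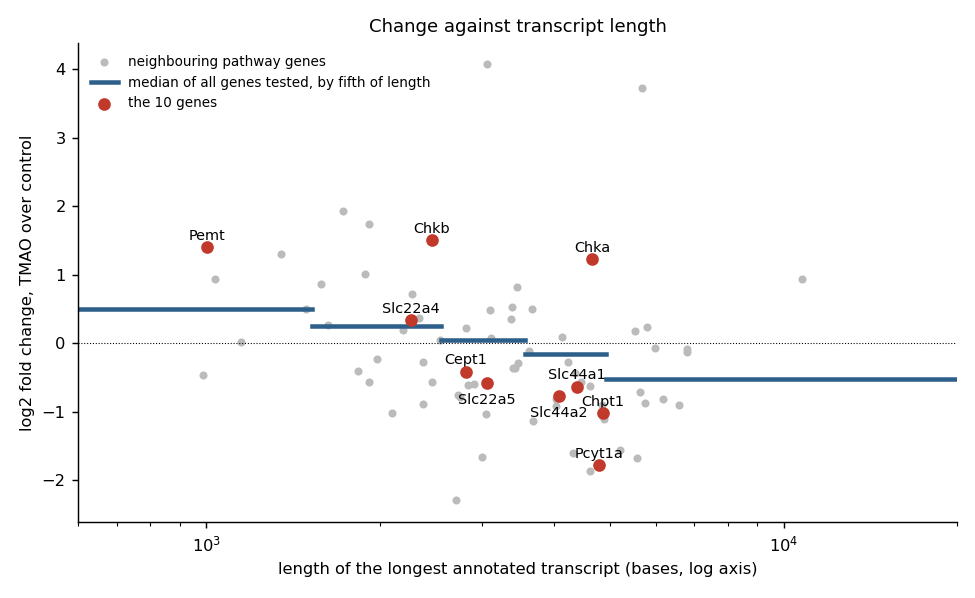
Log2 fold change of TMAO over control against the length of the longest annotated transcript (log axis) for the 10 genes (red, named) and tested genes of the neighbouring pathways (grey), with the median of all genes tested in each of 5 length classes as blue bars. The blue bars step down from 0.49 to -0.53, and Chka at 1.22 and Pcyt1a at -1.77 lie at nearly the same length on opposite sides.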

How the data were processed

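The authors deposited raw counts per Ensembl gene, as whole numbers with no normalization, for 6 libraries. Per the submitters' processing notes the build was GRCm39. The aligner was not given in the sources used here, nor were the counter, strand setting and annotation, so counts of overlapping genes on opposite strands cannot be told apart. Per the labels' protocols, poly(A) RNA was selected and libraries were amplified by PCR. Groups and replicate numbers came from the sample titles, and columns were matched through the sample descriptions. No 2 libraries of a group agreed within sampling noise (chi-square per degree of freedom 13.02 to 65.6).

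Symbols for 25386 of 25751 gene IDs, transcript lengths, GC content and exon overlaps came from GENCODE M21 on GRCm38, matched by ID, and promoter sequences from RefSeq on GRCm38.p6. Genes were filtered with filterByExpr (minimum count 10, by group), scaled by TMM and tested, TMAO over control without covariates, with the quasi-likelihood F test of edgeR 4.0.16 under R 4.3.3, beside limma 3.58.1. P-values were adjusted over all 14626 genes. The SE was taken as the absolute log2 fold change over √F. CPM per kb divides by the longest annotated transcript. The steps were tested on simulated counts with few genes changed, as many up as down, and no trend on length or GC content. In these data 65.7% of the genes tested were called and changes followed length, so the simulation did not test such conditions. Library totals of 37759007 to 41735109 counts set the counting precision.

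The members, the gene lists and the rule for named genes (all 10 members, and up to 3 genes with the smallest p in each pathway list) were chosen with earlier results of these data known. The 6 gene pairs were chosen after their values were seen. Alternatives were DESeq2 1.42.0, limma-voom, other moderation, scaling and filters, trends on length and GC content removed, the replicate number as a block, and each library left out.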

Additional observations from a re-analysis of the deposited data

How the results depend on the processing

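Pcyt1a, Chka, Pemt, Chpt1, Slc44a1, Slc44a2 and Slc22a5 kept their direction and call under all 16 alternatives, and Chkb under the 15 that tested it, since a minimum of 1 CPM in 3 libraries removed it. Slc22a4 and Cept1 kept their direction and lost the call as given with their values. Leaving out each library gave 3 to 4 of the 10 genes higher and 6 lower, with 4392 to 4955 genes higher and 4225 to 4976 lower over all genes. Selenoi was not called in the main fit (log2 fold change -0.14, edgeR adjusted p = 0.336). With the length trend removed its sign reversed, to 0.32 (edgeR adjusted p = 0.00721). The cause was not tested beyond that correction.

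Same-numbered libraries correlated in their deviations at 0.032, 0.133 and -0.067, so the numbers were not taken to pair the samples. The replicate block gave 4887 genes higher and 4836 lower, against 4830 and 4778 without it, and 4 and 6 of the 10 genes. Chkb, at 11 to 34 reads per library, is limited by depth.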

Other observations

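Other genes of phospholipid turnover, named after their values were seen, also changed. Lpin1, a phosphatidate phosphatase gene, had 4.78 ± 1.21 CPM with TMAO and 15.3 ± 1.599 CPM in controls, and Lpin2 had 66.5 ± 7.11 and 109 ± 12.4 CPM. Gpam, an acyltransferase gene of mitochondria, was lower with TMAO at 9.69 ± 0.277 CPM, against 17.1 ± 1.80 CPM in controls. Lpcat3 was lower (25.9 ± 2.51 CPM with TMAO, 47.9 ± 4.31 CPM in controls) and Lpcat4 higher (12.7 ± 1.149 and 7.68 ± 0.640 CPM). The phospholipase D genes moved apart, with Pld1 at 12.5 ± 1.73 CPM with TMAO and 23.4 ± 2.30 CPM in controls, and Pld2 at 83.1 ± 5.57 and 59.1 ± 2.48 CPM. Gde1 was higher with TMAO, at 202 ± 9.08 CPM against 111 ± 8.09 CPM in controls, and Pnpla6, which acts on phosphatidylcholine and its lyso form, lower at 18.9 ± 1.46 against 34.7 ± 0.435 CPM. Each passed edgeR's quasi-likelihood test over all genes. Agpat2 was higher (log2 fold change 0.50) but not with the trend on length (0.11) or GC content (0.19) removed.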
